A study of Mus musculus with 22 samples.

Results

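Axon guidance ligands and their receptors were examined in the dentate gyrus of mice, 6 h after a seizure or a saline injection. The members were taken by gene symbol: semaphorins, plexins, neuropilins, ephrins and Eph receptors, Slits, Robos, netrins and Unc5 receptors as the array annotation names them. They comprised 70 symbols with 160 probes, of 22491 genes and 46237 probes on the array. Of these, 33 were ligands, 35 were receptors, and 2 (Unc50 and Unc5cl) carried a matching symbol without being guidance receptors. Plxn2 and Unc5h3 are older names of Plxna2 and Unc5c, and their separate probes stayed in the counts. A gene was represented by its probe with the highest mean signal. There were 30 members with 1 probe and 40 with more, up to 7.

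Total RNA of 22 male mice was hybridized to Illumina beadchip arrays, 1 array for each animal. All mice were adult and homozygous for an Srf allele flanked by loxP sites (Srf f/f), the gene of serum response factor, and all had received tamoxifen. Control mice (CTR) were littermates without Cre. Knockout mice (KO) carried CaMKCreERT2, a tamoxifen-activated Cre driven in excitatory forebrain neurons and not in the interneurons, glia and vessels of the same tissue. Kainic acid (KA), which activates glutamate receptors and evokes seizures, was injected into the peritoneum in doses between 35 and 50 mg/kg, and mice were taken 6 h after severe seizures had set in. The groups were CTR saline (n = 6), CTR KA (n = 5), KO saline (n = 6) and KO KA (n = 5).

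Guidance ligands steer growing axons by attraction or repulsion and remain present in the adult brain, where they act on dendrites, spines and synapses. Secreted class 3 semaphorins signal through a neuropilin that binds the ligand and a plexin that carries the signal, whereas membrane-bound semaphorins bind plexins directly. Ephrins of class A are anchored by a lipid and bind mostly EphA kinases, ephrins of class B span the membrane and bind mostly EphB kinases, Slits act through Robos, and netrins act through Dcc and the Unc5 receptors. In the dentate gyrus these systems are known for the layering of mossy fibers, the axons of granule cells, and for the spacing of granule cell synapses.

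Deposited log2 signals lay between 6.69 and 16.12 with a median of 7.88, and a fold change is understated where the signal is near that low end. The mean signal of 17 members lay below the median and that of 53 above it. Srf itself had 12.45 ± 0.12 (SD, n = 6) in CTR saline mice, 12.06 ± 0.20 (SD, n = 5) in CTR KA mice, 11.41 ± 0.17 (SD, n = 6) in KO saline mice and 11.23 ± 0.20 (SD, n = 5) in KO KA mice, and no CTR array overlapped a KO array. Of 8 listed granule cell markers 6 were measured, and 4 of them lay above the median signal in CTR saline mice. Their summed linear signal stayed between 40002 and 58428 on the 12 saline arrays and between 32449 and 45979 on the KO KA arrays. On CTR KA arrays 1 to 5 it was 48771, 14993, 28980, 15012 and 55074, so arrays 2 and 4 were the lowest of all 22. After KA in CTR mice 2 of the 6 markers were called higher and 2 lower. Compared between the genotypes after KA, 2 of the 6 were higher in KO mice and 1 lower, against 2.6% and 3.71% of all genes. All 6 measured pyramidal cell markers and all 8 astrocyte markers also lay above the median signal in each of the 4 groups, so the dissected tissue held signal of both. Of the 6 pyramidal markers, 2 were called higher in KO than in CTR mice after KA. For KA in KO mice 2 were called higher and 1 lower, and for KA in CTR mice 1 lower. Pyramidal sums were 13812 to 32215 in CTR KA mice and 24149 to 36524 in KO KA mice. The sums of 3 other cell types moved with KA in CTR mice as well, although most of their markers were not called. After KA in CTR mice 2 of 8 astrocyte markers and 2 of 8 GABAergic markers were called higher, and 3 of 7 microglia markers lower. The median log2 differences of these lists were 0.21, 0.08 and −0.10. Astrocyte sums were 145935 to 163465 after saline and 177111 to 218093 after KA in CTR mice, against 146959 to 168639 in KO KA mice. GABAergic interneuron sums (5 of 8 markers above the median in CTR saline mice) went from between 56635 and 68404 to between 82483 and 107850 in CTR mice, against 61289 to 87992 in KO KA mice. Microglia sums (6 of 7 markers above the median) went from between 8693 and 12190 to between 6854 and 8432 in CTR mice. In KO mice they went from between 8995 and 11059 to between 6821 and 8969. In CTR mice none of these 3 sums overlapped between saline and KA, and the astrocyte sums of CTR KA mice also lay above all of KO KA mice. In KO mice only the microglia sums, of these 3, did not overlap. Choroid plexus and ependyma sums varied widely, from 3813 on a KO KA array to 94493 on a KO saline array. The part of these sums in the differences of the members was not tested. In a bulk sample, fewer cells of a type and less RNA per cell cannot be told apart.

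The promoters of 5 members are shown, as examples picked after their values and letters were seen. Nrp1, Plxna2 and Efna3 rose in both genotypes, Sema5a fell the most among the semaphorins, and the window of Robo1 holds the letters of the element that serum response factor binds. The windows of Ntn5, Sema4f and Sema7a, which also changed, hold none of the motifs searched. Sequences are from RefSeq on build GRCm38.p6, 5′ to 3′ on the strand of the gene, with matches to a searched motif in capitals. The windows are Nrp1 chr8:128358823-128359122 (plus strand), Plxna2 chr1:194619579-194619878 (plus), Efna3 chr3:89322890-89323189 (minus, 1 of 2 windows), Sema5a chr15:32244563-32244862 (plus) and Robo1 chr16:72662899-72663198 (plus).
Nrp1: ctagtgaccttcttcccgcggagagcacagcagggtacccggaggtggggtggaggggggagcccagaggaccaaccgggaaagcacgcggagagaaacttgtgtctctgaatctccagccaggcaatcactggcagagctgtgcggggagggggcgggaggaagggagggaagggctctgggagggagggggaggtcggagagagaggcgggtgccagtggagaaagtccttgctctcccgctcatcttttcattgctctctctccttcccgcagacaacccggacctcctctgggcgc
Plxna2: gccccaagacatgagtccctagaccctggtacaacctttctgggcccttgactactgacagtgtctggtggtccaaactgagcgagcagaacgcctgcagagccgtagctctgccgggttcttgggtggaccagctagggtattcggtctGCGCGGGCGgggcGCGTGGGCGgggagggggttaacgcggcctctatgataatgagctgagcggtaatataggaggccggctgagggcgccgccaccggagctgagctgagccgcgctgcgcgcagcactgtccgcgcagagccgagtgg
Efna3: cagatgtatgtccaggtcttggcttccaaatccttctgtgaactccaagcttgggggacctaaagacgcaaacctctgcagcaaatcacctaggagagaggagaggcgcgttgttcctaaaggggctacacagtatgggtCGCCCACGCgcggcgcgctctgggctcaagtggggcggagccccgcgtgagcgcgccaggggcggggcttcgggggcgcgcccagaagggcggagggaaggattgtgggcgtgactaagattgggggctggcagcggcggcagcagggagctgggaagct
Sema5a: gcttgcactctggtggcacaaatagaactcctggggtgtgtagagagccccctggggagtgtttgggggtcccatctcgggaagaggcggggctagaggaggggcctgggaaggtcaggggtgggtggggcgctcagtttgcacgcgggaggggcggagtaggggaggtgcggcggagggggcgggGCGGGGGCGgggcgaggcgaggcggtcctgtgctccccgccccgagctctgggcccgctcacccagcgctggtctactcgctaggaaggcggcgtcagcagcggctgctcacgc
Robo1: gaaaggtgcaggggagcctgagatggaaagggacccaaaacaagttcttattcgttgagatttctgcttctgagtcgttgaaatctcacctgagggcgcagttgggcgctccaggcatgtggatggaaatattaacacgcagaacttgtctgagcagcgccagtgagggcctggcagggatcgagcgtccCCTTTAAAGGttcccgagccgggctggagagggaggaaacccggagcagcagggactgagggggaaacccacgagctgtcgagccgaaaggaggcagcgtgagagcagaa
The motifs searched on both strands were the EGR site (GCGNGGGCG), the AP-1 site (TGANTCA), the cAMP response element (TGACGTCA) and the CArG box, the element of serum response factor. The EGR letters begin at positions −100 and −87 from the annotated start in Plxna2, at −110 in Efna3 and at −64 in Sema5a, and the CArG letters at −60 in Robo1, while the Nrp1 window holds none of the 4. Over 76 windows of the 60 members that the RefSeq promoter table held, the EGR letters were found in 14 windows (18.4%, against 5.55% of 32851 windows of all genes). The median GC content was 64.3% in the member windows, 69.3% in those 14 and 52.7% in all windows, and its part in the share was not tested. CArG letters occurred in 2 member windows, of Sema4d and Robo1 (2.63%, against 1.63% of all), AP-1 letters in 3 (3.95%, against 7.81%) and the cAMP response element in 1 (1.32%, against 1.79%). A match describes letters in these windows and is neither a binding site nor a cause, and Plxna2, which rose, and Sema5a, which fell, both hold EGR letters.

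The first comparison asked which members changed after KA in mice with intact Srf. A probe was called at an adjusted p under 0.05 in limma, over all probes, with a change above 1.5-fold. In CTR mice 6 members rose after KA, the receptors Nrp1, Plxna2, Robo3 and Robo4 and the ligands Sema4f and Efna3, against 8.83% of all genes that rose. Another 9 fell, the semaphorins Sema5a, Sema6b and Sema7a, the Eph receptors Epha3, Ephb1, Ephb2 and Ephb6, the netrin Ntn5 and its family's receptor Unc5c, against 8.41% of all genes. The shares of members were 8.57% higher and 12.9% lower, and the median log2 difference of the 70 was −0.02, as against −0.01 over all genes, so the set as a whole lay near the background. In KO mice 7 members rose (10.0% of 70, against 4.17% of all genes) and 4 fell (5.71%, against 4.21%). The higher ones were Sema3e, Sema4f, Sema6d, Nrp1, Plxna2, Efna3 and Robo3, and the lower ones Sema5a, Sema6b, Epha3 and Ntn5. None of the 19 members called in any comparison lay below the median signal.

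**Figure D1:**
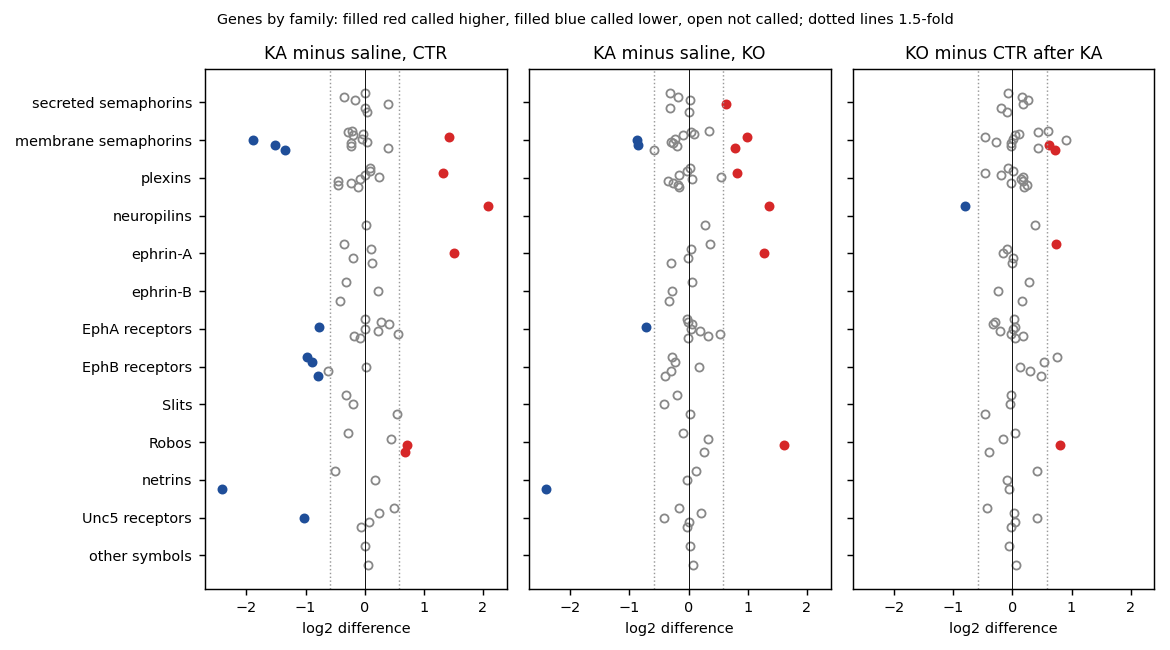
Log2 differences of the 70 members by family for KA against saline in CTR mice, KA against saline in KO mice, and KO against CTR mice after KA. Each point is a gene on its brightest probe, filled red where called higher and blue where called lower, and dotted lines mark 1.5-fold. In CTR mice 3 of 5 EphB receptors (60.0%) and 3 of 13 membrane semaphorins (23.1%) were called lower, against 8.41% of all genes.

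Nrp1, the neuropilin that binds Sema3a and also serves as a co-receptor for VEGF, rose more than any other member in CTR mice. Its log2 signal (probe ILMN_1237197) ran from 12.95 to 13.41 with a median of 13.21 on the CTR saline arrays, and was 15.51, 15.39, 15.26, 15.27 and 15.05 on the CTR KA arrays. All CTR KA arrays lay far above all CTR saline arrays, with little spread between them. The rise was 4.23-fold (log2 difference 2.08, standard error 0.14, limma adjusted p = 1.8e-10). The signal in KO mice ran from 12.86 to 13.24 after saline (median 13.19), and was 14.70, 14.53, 15.00, 13.78 and 14.48 after KA. The KO KA arrays again lay above all saline arrays, yet each lay below the lowest CTR KA array. The rise in KO mice was 2.57-fold (log2 difference 1.36, adjusted p = 5.1e-07), and after KA the signal in KO mice was 1.74-fold lower than in CTR mice (log2 difference −0.80, standard error 0.15, adjusted p = 9.0e-04). The other Nrp1 probe, ILMN_2669912, gave log2 differences of 2.09, 1.41 and −0.87 in these 3 comparisons. On ILMN_1237197 the interaction term, the KO response minus the CTR response, was −0.72. Its adjusted p of 0.045 in limma was above the threshold of 0.01 set for it. Nrp2, the other neuropilin, had log2 differences of 0.02 in CTR and 0.28 in KO mice, and Sema3a, the principal ligand of Nrp1, 0.01 and −0.32, none of them called.

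Plxna2, the plexin through which class 6 semaphorins act on mossy fibers and Sema5a on granule cells in mice, rose in both genotypes. On probe ILMN_2701815 the CTR saline arrays held 11.04 to 11.26 (median 11.21) and the CTR KA arrays 12.69, 12.60, 12.88, 11.69 and 12.65. Array 4, which had a low sum of granule cell markers, was the low one, and it still lay above every saline array. The rise was 2.50-fold in CTR mice (log2 difference 1.32, standard error 0.15, limma adjusted p = 3.0e-07). The KO saline arrays held 11.03 to 11.38 (median 11.22) and the KA arrays 12.07, 11.88, 12.40, 11.73 and 12.10, without overlap. The rise in KO mice was 1.77-fold (adjusted p = 4.3e-04), and the difference between the genotypes after KA was −0.47 (adjusted p = 0.063). The interaction term was −0.50 (adjusted p = 0.24) and was not called. A dim Plxna2 probe near the low end of the range (ILMN_2482866, mean signal 7.42) had log2 differences of −0.01 and −0.04 after KA. Among the 10 plexin symbols no other was called on its brightest probe. Plxna4, which like Plxna2 binds class 6 semaphorins, had 0.25 (adjusted p = 0.31) in CTR mice on its brightest probe, ILMN_2520582. On 2 dimmer Plxna4 probes, picked out after their values were seen, the log2 differences in CTR mice were 1.06 (ILMN_1214617, adjusted p = 1.6e-04) and 0.84 (ILMN_2635986, adjusted p = 3.3e-05).

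Among the membrane-bound semaphorins 1 of 13 rose (7.69%, against 8.83% of all genes) and 3 fell (23.1%, against 8.41%) in CTR mice. Sema4f, a transmembrane semaphorin, had 11.19 to 11.39 (median 11.27) on the CTR saline arrays and 13.31, 12.42, 12.97, 11.76 and 13.07 on the CTR KA arrays (probe ILMN_2998813). The CTR KA arrays varied by more than the saline arrays and did not overlap them. The rise was 2.70-fold (log2 difference 1.43, standard error 0.21, limma adjusted p = 1.3e-05). In KO mice the signal went from 11.03 to 11.60 after saline (median 11.19) to 12.27, 12.15, 12.84, 11.54 and 12.42 after KA, where array 4 overlapped the saline arrays. The rise there was 1.99-fold (adjusted p = 0.0021), and the difference between the genotypes after KA was −0.46 (adjusted p = 0.25). A further probe, ILMN_1255851, gave 1.45 and 0.93 for the CTR and KO responses.

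Sema5a, a transmembrane semaphorin with thrombospondin repeats that limits synapses on granule cells in mice, fell the most among the semaphorins. Its CTR saline arrays held 14.17 to 14.53 (median 14.33) and its CTR KA arrays 13.29, 12.09, 12.33, 11.02 and 13.63 (probe ILMN_2604226). All CTR KA arrays were below all saline arrays, and arrays 1 and 5, which had the highest sums of granule cell markers in the group, were also the highest in Sema5a. The fall was 3.68-fold (log2 difference −1.88, standard error 0.29, limma adjusted p = 1.8e-05). The KO saline arrays held 13.92 to 14.59 (median 14.25) and the KA arrays 13.33, 13.40, 13.35, 13.02 and 13.82, again without overlap. The fall in KO mice was 1.83-fold (log2 difference −0.87, adjusted p = 0.045), a call that was kept in 7 of 22 fits with 1 array left out. After KA the genotypes differed by 0.91 (adjusted p = 0.056) on this probe, and its interaction term was 1.01 (adjusted p = 0.21). The second bright probe, ILMN_2604224, gave −2.00 in CTR mice, −0.92 in KO mice and 0.95 between the genotypes after KA (adjusted p = 0.039), while 3 dim Sema5a probes had differences in CTR mice between −0.12 and 0.16. Without CTR KA arrays 2 and 4 the fall in CTR mice was −1.27 (adjusted p = 3.9e-05).

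Sema6b and Sema7a also fell in CTR mice. Sema6b, a ligand of plexins A2 and A4 that helps to place mossy fibers in mice, had 12.01 to 12.20 (median 12.12) on the CTR saline arrays and 10.38, 10.45, 10.66, 10.12 and 11.46 on the CTR KA arrays (probe ILMN_2769285). Its KO KA arrays held 11.21, 11.43, 10.97, 11.37 and 11.14, below KO saline arrays of 11.95 to 12.17 (median 12.08). In both genotypes the KA arrays lay clear of the saline arrays, and CTR KA array 5 lay just above the highest KO KA array while the others lay below the lowest. The fall was 2.85-fold in CTR mice (log2 difference −1.51, standard error 0.15, limma adjusted p = 3.6e-08) and 1.81-fold in KO mice (−0.86, adjusted p = 2.5e-04). After KA the signal was 0.61 higher in KO mice (adjusted p = 0.011), a call that was not kept without CTR KA arrays 2 and 4 (0.39, adjusted p = 0.13). That call was also lost with only the KA groups in the fit, and the interaction term was 0.65 (adjusted p = 0.085). Sema7a, a lipid-anchored semaphorin that binds plexin C1 and integrins, held 12.08 to 12.90 after saline (median 12.67) and 11.36, 11.53, 11.50, 10.69 and 11.24 after KA in CTR mice (probe ILMN_2790357). Its KO KA arrays held 12.19, 11.99, 11.21, 12.62 and 11.94, and they overlapped both the KO saline and the CTR KA arrays. It fell 2.55-fold in CTR mice (log2 difference −1.35, standard error 0.19, adjusted p = 7.8e-06). A difference of −0.58 in KO mice (adjusted p = 0.0504) was not called, and after KA the signal was 0.73 higher in KO than in CTR mice (adjusted p = 0.020). Without CTR KA arrays 2 and 4 the latter was 0.63 (adjusted p = 0.076). Its call was also lost with only the KA groups in the fit, and the interaction term of Sema7a was 0.77 (adjusted p = 0.13). Plxnc1, the receptor of Sema7a, had −0.46 in CTR mice (adjusted p = 0.038, under 1.5-fold).

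Sema3e and Sema6d were called after KA in KO mice. Sema3e, a secreted semaphorin that binds plexin D1 without a neuropilin, had a log2 difference of 0.64 in KO mice (limma adjusted p = 0.018) and of 0.40 in CTR mice (adjusted p = 0.13). Its KO KA arrays held 10.80, 10.62, 10.23, 10.61 and 9.98, of which the last lay within the KO saline range of 9.48 to 10.14. Sema6d, a transmembrane ligand of plexin A1, differed by 0.79 in KO mice (adjusted p = 0.021) and by 0.40 in CTR mice (adjusted p = 0.26). The interaction terms were 0.24 (adjusted p = 0.75) and 0.39 (adjusted p = 0.66), so a difference between the genotypes was not shown for either. Plxnd1 had −0.12 in CTR and −0.16 in KO mice, and Plxna1 0.09 and −0.02.

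**Figure D2:**
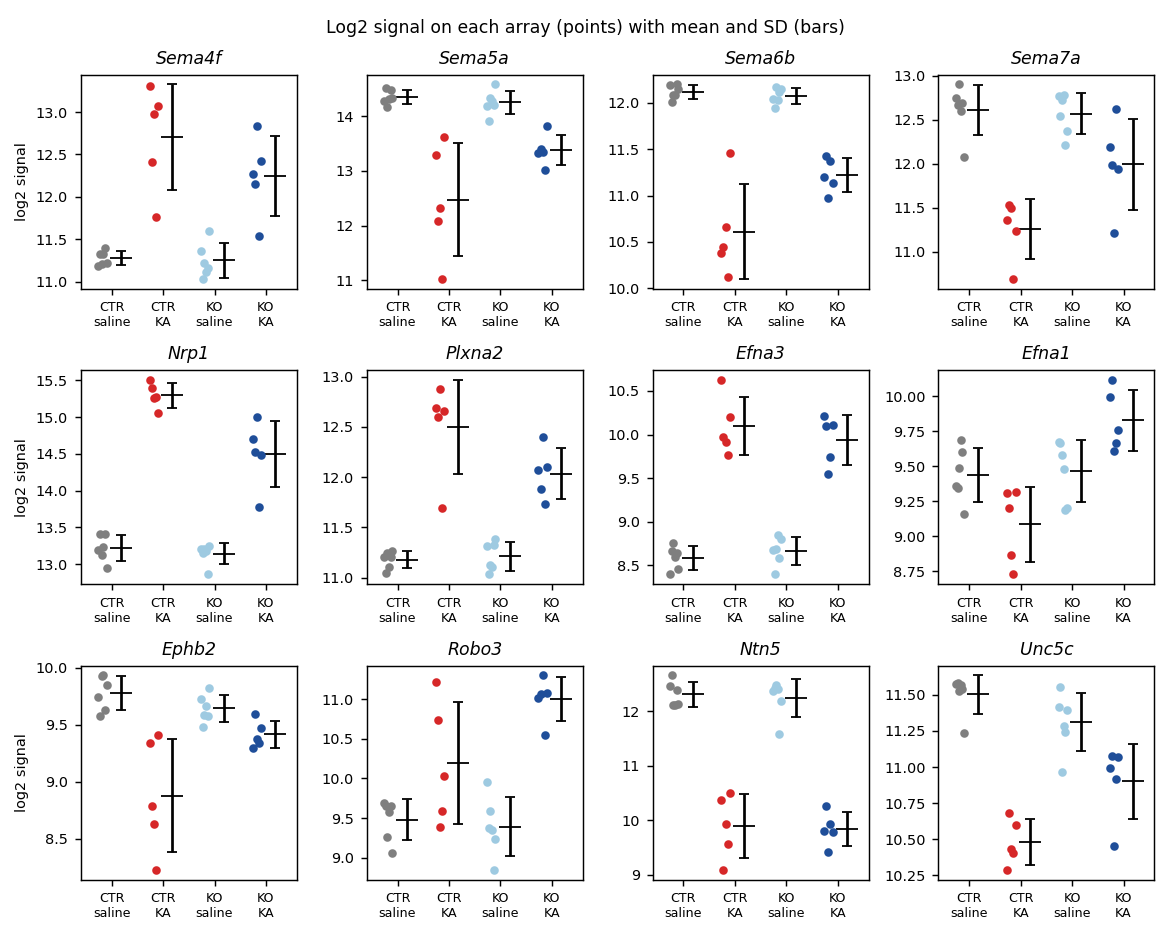
Log2 signal of 12 members on each array (points) in the 4 groups, with the group mean and SD (bars), on axes that do not start at 0. Nrp1 on the CTR KA arrays, at 15.05 to 15.51, lies above every other array, and Ntn5 is low after KA in both genotypes.

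Of the ephrins, Efna3 rose in both genotypes to overlapping levels. This lipid-anchored ligand of EphA receptors had 8.40 to 8.76 (median 8.62) on the CTR saline arrays and 10.63, 9.98, 9.91, 9.77 and 10.20 on the CTR KA arrays (probe ILMN_2818879). In KO mice it had 8.40 to 8.85 (median 8.68) after saline and 10.21, 10.10, 9.54, 9.74 and 10.11 after KA. The KA arrays of either genotype lay above all saline arrays and overlapped each other. The rise was 2.85-fold in CTR mice (log2 difference 1.51, standard error 0.13, limma adjusted p = 8.0e-09) and 2.41-fold in KO mice (1.27, adjusted p = 4.6e-07), and after KA the genotypes differed by −0.16 (standard error 0.14, adjusted p = 0.63). The dimmer Efna3 probe ILMN_1220598 had 0.44 and 0.49, neither called.

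Efna1 and Efna4 lie next to Efna3 on chromosome 3, and neither was called for KA in either genotype. Efna1, another class A ephrin, had 9.31, 9.20, 8.87, 8.73 and 9.32 on the CTR KA arrays and 10.00, 10.12, 9.61, 9.67 and 9.76 on the KO KA arrays. After saline it ran from 9.16 to 9.69 (median 9.42) in CTR and from 9.19 to 9.68 (median 9.53) in KO mice. The 2 groups given KA did not overlap, and they lay on either side of the saline groups with some overlap. After KA it was 1.67-fold higher in KO than in CTR mice (log2 difference 0.74, standard error 0.13, adjusted p = 5.5e-04), from responses of −0.35 in CTR mice (adjusted p = 0.048) and 0.36 in KO mice (adjusted p = 0.066), both under 1.5-fold. The interaction term was 0.72 (adjusted p = 0.022), above the threshold of 0.01 set for it. Efna4 had −0.19 and −0.01 in CTR and KO mice. Efna2 was dim, close to the lowest signals, and Efna5 had 0.13 and −0.29. The class B ephrins Efnb1, Efnb2 and Efnb3 had −0.31, 0.23 and −0.41 in CTR mice and were not called.

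Of the 5 receptors of the EphB family 3 fell after KA in CTR mice (60.0%, against 8.41% of all genes), with a family median of −0.79. Ephb2, a receptor of class B ephrins at excitatory synapses, held 9.58 to 9.93 (median 9.80) after saline and 9.34, 8.78, 8.63, 8.23 and 9.41 after KA in CTR mice (probe ILMN_2622255). All CTR KA arrays were lower than the saline arrays, and arrays 1 and 5 came close to them. The fall was 1.86-fold (log2 difference −0.90, standard error 0.15, limma adjusted p = 4.8e-05). As the mean of the 2 Ephb2 probes the difference was −0.53, under 1.5-fold. Ephb1, which binds the same ligands, had 11.51, 10.02, 10.52, 9.44 and 11.73 on the CTR KA arrays, against 11.44 to 11.88 (median 11.58) after saline. Arrays 1 and 5 lay within the saline range and arrays 2 and 4 far below it, and arrays 2 and 4 were also the lowest in the sums of granule cell markers given above. The difference was −0.98 (standard error 0.26, adjusted p = 0.0062), and without arrays 2 and 4 it was −0.37 (adjusted p = 0.15). Ephb1 was also not called with only the CTR arrays in the fit (adjusted p = 0.060) or as the mean of its probes (−0.48, under 1.5-fold). Ephb6, a family member without kinase activity, held 8.94 to 9.34 after saline (median 9.25) and 8.83, 8.52, 8.47, 8.18 and 7.93 after KA in CTR mice, without overlap. It fell 1.73-fold (log2 difference −0.79, standard error 0.15, limma adjusted p = 2.1e-04). Its lowest value, 7.93, was on array 5, which had the highest sum of granule cell markers among the CTR KA arrays. Without CTR KA arrays 2 and 4 the differences were −0.65 for Ephb2 (adjusted p = 6.8e-04) and −0.76 for Ephb6 (adjusted p = 0.0020). Ephb4 had −0.63 (adjusted p = 0.051), and Ephb3, near the low end of the range, 0.02.

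In KO mice 0 of these 5 receptors were called with limma after KA, against 4.21% of all genes that fell, and 2 had an unadjusted p under 0.05. The family median was −0.29. Ephb1 had −0.29 (limma adjusted p = 0.62), Ephb2 −0.23 (adjusted p = 0.42), Ephb4 −0.29 (adjusted p = 0.53), Ephb6 −0.39 (adjusted p = 0.089) and Ephb3 0.17 (adjusted p = 0.11). The interaction terms of Ephb1, Ephb2 and Ephb6 were 0.70, 0.67 and 0.40 with adjusted p of 0.41, 0.074 and 0.40, so a difference between the responses of the genotypes was not shown. Compared directly after KA, Ephb2 was 1.45-fold higher in KO mice (0.54, adjusted p = 0.026), Ephb6 1.40-fold (0.49, adjusted p = 0.045) and Ephb1 1.68-fold (0.75, adjusted p = 0.095). None of these met both thresholds.

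Of the 9 EphA receptors 1 was called. This was 11.1%, against 8.41% of all genes that fell in CTR mice and 4.21% in KO mice. Epha3, a receptor of class A ephrins, fell in both genotypes, from 9.56 to 9.93 (median 9.72) to 8.73, 8.71, 8.87, 9.19 and 9.30 in CTR mice, and from 9.38 to 10.00 (median 9.71) to 9.04, 9.22, 8.48, 9.19 and 9.13 in KO mice (probe ILMN_2831656). The KA arrays lay below the saline arrays of their genotype and overlapped each other. The log2 differences were −0.77 in CTR mice (standard error 0.14, limma adjusted p = 9.6e-05) and −0.71 in KO mice (adjusted p = 6.2e-04), with a difference between genotypes after KA of 0.05 (adjusted p = 0.91). In KO mice it rested on array 3, without which the difference was −0.58 and just under 1.5-fold. Epha4, which binds both ephrin classes, had −0.00 in CTR and 0.04 in KO mice. Epha6 had 0.56 in CTR (adjusted p = 0.0012) and 0.54 in KO mice (adjusted p = 0.0040), under 1.5-fold. A dimmer Epha6 probe (ILMN_1228262), picked out after its values were seen, rose by 1.35 in CTR and 0.73 in KO mice, with a difference of −0.69 between the genotypes after KA. Likewise a dim Epha5 probe (ILMN_1231684) had 1.12 in CTR mice and −0.74 between the genotypes after KA, where the brightest Epha5 probe had 0.22 and −0.20.

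Robo3 and Robo4 lie side by side on chromosome 9 and were both called higher in CTR mice, with different patterns. Robo3, which in mice lets commissural axons cross the midline, had 9.06 to 9.69 (median 9.61) on the CTR saline arrays and 11.22, 10.73, 9.39, 9.59 and 10.03 on the CTR KA arrays (probe ILMN_1247463). In KO mice it had 8.85 to 9.96 (median 9.37) after saline and 11.02, 11.07, 11.30, 10.54 and 11.08 after KA. Its CTR KA arrays ran from within the saline range to well above it, whereas all KO KA arrays lay above all KO saline arrays. The rise in KO mice was 3.05-fold (log2 difference 1.61, standard error 0.25, limma adjusted p = 6.7e-05). In CTR mice the difference was 0.71 (standard error 0.25, adjusted p = 0.039), and that call was lost when any of CTR KA arrays 1 and 2 or CTR saline arrays 3, 4 and 6 was left out (0.46 at the lowest). After KA the signal was 0.81 higher in KO mice (adjusted p = 0.0498), a call kept in 6 of 22 fits with 1 array left out, and the interaction term was 0.90 (adjusted p = 0.19). This call and the Robo3 call in CTR mice were also lost with only the compared groups in the fit, in an unmoderated fit and in the Tukey test.

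Robo4, a Robo found mainly in the endothelium of vessels, had 10.18 to 10.97 (median 10.38) on the CTR saline arrays and 11.17, 11.30, 11.03, 10.56 and 11.61 on the CTR KA arrays. Array 4 lay within the saline range and the others above it. The rise was 1.59-fold (log2 difference 0.67, standard error 0.16, limma adjusted p = 0.0027), and without CTR KA array 5 it was 0.55, under 1.5-fold. As the mean of the 4 Robo4 probes the difference was 0.16 and was not called. In KO mice the difference was 0.27 (adjusted p = 0.37). Of 9 endothelial and mural cell markers, 2 were called higher and 1 lower after KA in CTR mice. Their summed signal ran from 16632 to 44384 after saline and from 13664 to 54551 after KA in CTR mice, and from 14363 to 32774 in KO KA mice. Its part in the Robo4 difference was not tested. Robo1 had −0.29 and −0.09, and the ligands Slit1, Slit2 and Slit3 had −0.32, −0.19 and 0.55 in CTR mice, of which Slit3 had an adjusted p of 0.029 below 1.5-fold. Robo2 had 0.45 in CTR mice (adjusted p = 0.10) on its brightest probe. Again picked out after their values were seen, 2 dimmer Robo2 probes (ILMN_1233193 and ILMN_1222581) rose by 0.87 and 0.90 in CTR mice, with differences of −0.68 and −0.61 between KO and CTR mice after KA.

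**Figure D3:**
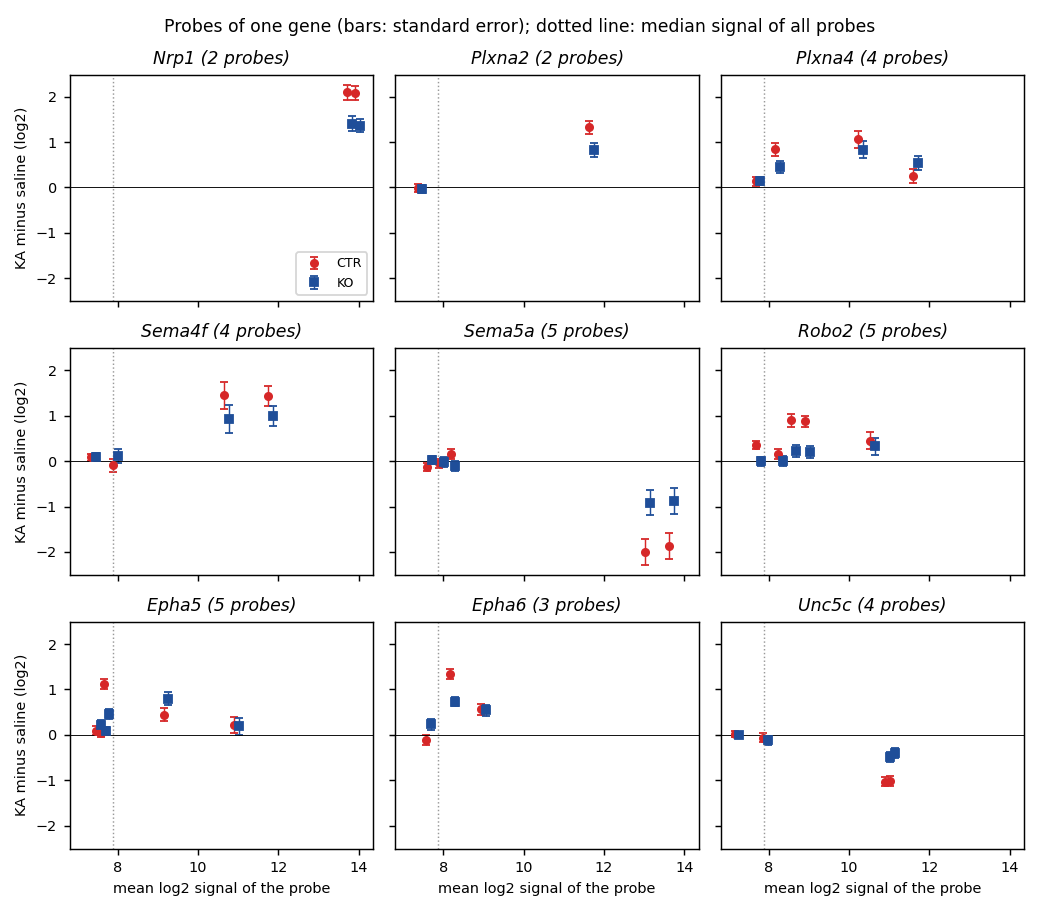
Log2 difference after KA against mean log2 signal for each probe of 9 genes, with CTR mice in red circles and KO mice in blue squares (shifted slightly to the right), standard errors as bars and the median signal of all probes as a dotted line. The bright probes of Nrp1, Sema4f, Sema5a and Unc5c lie together, whereas in Plxna4, Robo2, Epha5 and Epha6 dimmer probes differ from the brightest.

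Of the 3 netrins, Ntn5 had the largest difference of all 70 members, and it fell alike in both genotypes. This netrin, described in neurogenic regions of the adult mouse brain, had 12.10 to 12.66 (median 12.26) on the CTR saline arrays and 10.38, 9.09, 9.93, 9.57 and 10.49 on the CTR KA arrays (probe ILMN_2903169). In KO mice it had 11.57 to 12.48 (median 12.39) after saline and 9.81, 10.26, 9.42, 9.93 and 9.77 after KA. In each genotype every KA array lay more than 1 log2 unit below every saline array. The fall was 5.34-fold in CTR mice (log2 difference −2.42, standard error 0.21, limma adjusted p = 5.3e-09) and 5.29-fold in KO mice (−2.40, adjusted p = 2.5e-08), and the interaction term was small (0.01 ± 0.30, standard error, adjusted p = 0.99). The standard error leaves room for a difference between these responses of over 1.5-fold either way.

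Ntn3, another netrin, was the member called for the interaction between genotype and KA. It made up 1.43% of the 70 members, where 1.21% of all genes were called higher and 1.7% lower. On probe ILMN_2615312 its CTR KA arrays held 9.49, 9.33, 9.23, 9.49 and 9.75, below CTR saline arrays of 9.84 to 10.15 (median 9.95). Its KO KA arrays held 9.67, 9.86, 9.79, 9.94 and 10.12, overlapping the KO saline arrays at 9.57 to 9.94 (median 9.72). The difference was −0.51 in CTR mice (limma adjusted p = 1.9e-04) and 0.12 in KO mice (adjusted p = 0.52), both under 1.5-fold, and the interaction term 0.63 (standard error 0.13, adjusted p = 0.0058). It was kept in 11 of 22 fits with 1 array left out, and a dimmer Ntn3 probe, ILMN_1220826, had an interaction term of 0.31 (adjusted p = 0.18). Ntn4 had 0.17 and −0.03.

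Unc5c, a receptor through which netrins repel axons, fell in CTR mice from 11.24 to 11.58 (median 11.55) to 10.29, 10.69, 10.43, 10.40 and 10.60 (probe ILMN_2461668). In KO mice it held 10.96 to 11.55 (median 11.34) after saline and 11.00, 11.07, 10.45, 10.92 and 11.07 after KA. The CTR groups did not overlap and lay closely together within each group, while the KO groups overlapped. CTR KA array 2, with the lowest sum of granule cell markers, held the highest of the CTR KA values (10.69). The fall was 2.03-fold in CTR mice (log2 difference −1.02, standard error 0.11, limma adjusted p = 1.9e-07), and −0.41 in KO mice (adjusted p = 0.015), which was under 1.5-fold. The interaction term of 0.61 had a standard error of 0.16 and an adjusted p of 0.025, above the threshold of 0.01. A further bright probe, ILMN_2461665, gave −1.03 and −0.48. Unc5a had 0.49 in CTR (adjusted p = 0.0089) and −0.16 in KO mice, Unc5b 0.24 and 0.21, and Unc5d, near the low end of the range, 0.07 and 0.00.

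The next comparison asked whether the loss of Srf changed the members without seizures. After saline 0 of 70 members were called with limma, against 0.00445% of all genes, and 2 members had an unadjusted p under 0.05 (2.86%, against 2.17% of all genes). Those were Ntn3, at −0.21, and Sema4g. The log2 differences ran from −0.33 for Epha7 to 0.41 for Efna5, with standard errors up to 0.33. Each alternative fit and the Tukey test also called 0.

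After KA, KO mice differed from CTR mice in 5 members. Sema6b, Sema7a, Efna1 and Robo3 were higher (5.71% of 70, against 2.6% of all genes) and Nrp1 was lower (1.43%, against 3.71%). This comparison shares the CTR KA arrays with the first, so the values of a member in them are not independent. Without CTR KA array 4 a single member, Efna1, was called higher and 3 lower (Sema4f, Plxna2 and Nrp1). Without CTR KA array 1 there were 9 higher, and without array 5 there were 7, Ephb1, Ephb2 and Sema5a among them in both. Without KO KA array 1, 2 or 4 there were 2. Efna1 and Nrp1 were called in every fit with 1 array left out.

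Of the 15 members called after KA in CTR mice, all 15 had a difference of the same sign in KO mice and 14 had a smaller one (93.3%). Among all 3878 genes called in CTR mice the share with a smaller difference in KO mice was 91.1%, so the members did not stand apart in this, and genes called in CTR mice are chosen for a large difference there. Of the 15, 9 were also called in KO mice (60.0%, against 39.0% of all genes). The exception was Robo3. Sema3e and Sema6d were called in KO mice only, which does not show that their responses differed.

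**Figure D4:**
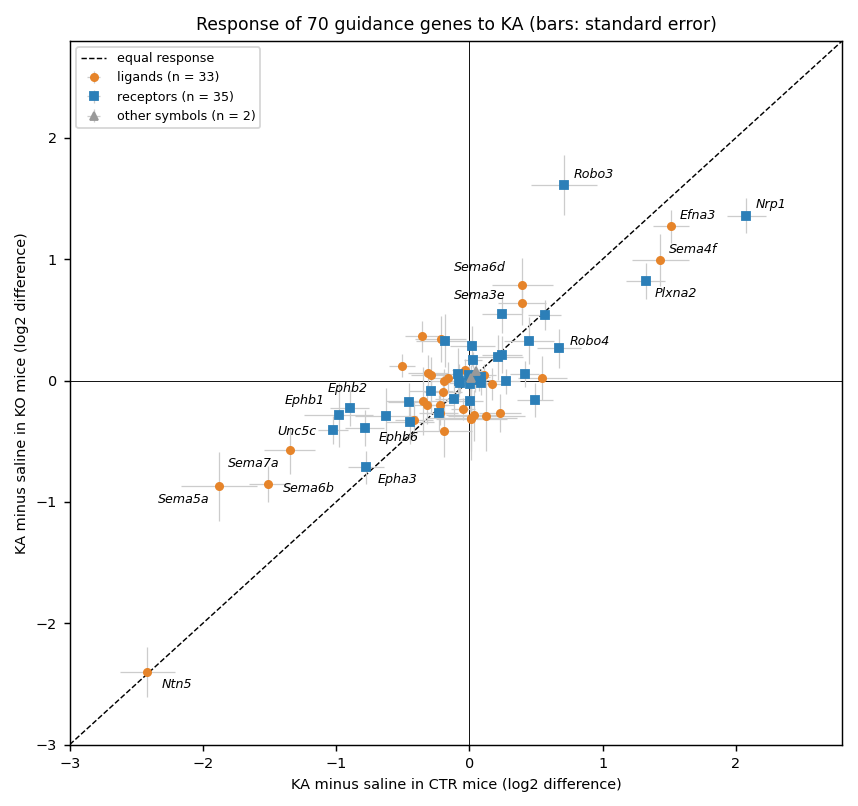
Log2 difference after KA in KO mice against that in CTR mice for the 70 members, with ligands as orange circles, receptors as blue squares, other symbols as grey triangles, standard errors as bars and equal response as a dashed line. Named are the members called in either genotype. Ntn5, at −2.42 and −2.40, and Epha3 lie on the line. Nrp1, Plxna2, Sema5a and the 3 named EphB receptors lie on the side of a smaller response in KO mice, and Robo3 on the other side. None of the named members was called in the interaction test (limma adjusted p under 0.01).

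The members act through shared co-receptors and effectors, of which 63 of 68 listed genes were measured. In CTR mice 9 rose after KA (14.3%, against 8.83% of all genes) and 8 fell (12.7%, against 8.41%), with a median of −0.05. In KO mice 5 rose (7.94%, against 4.17%) and 3 fell (4.76%, against 4.21%), with a median of −0.02. After KA 3 were higher in KO than in CTR mice (4.76%, against 2.6% of all genes) and 4 lower (6.35%, against 3.71%). For the interaction 0 were called higher and 2 lower (3.17%, against 1.7%). Rnd3, a small GTPase that binds plexins, went from 8.89 ± 0.18 (SD, n = 6) to 12.57 ± 0.25 (SD, n = 5) in CTR mice and from 8.98 ± 0.27 (SD, n = 6) to 9.62 ± 0.42 (SD, n = 5) in KO mice. Its log2 difference was 3.69 in CTR mice, 0.65 in KO mice and −2.95 between the genotypes after KA (limma adjusted p = 1.4e-10), with an interaction term of −3.04 (adjusted p = 4.4e-08). The collapsin response mediators Dpysl3 and Dpysl5, which carry semaphorin signals to the cytoskeleton, rose by 2.23 and 1.86 in CTR mice and were lower in KO than in CTR mice after KA (−1.04 and −1.50). Dpysl5 varied widely on the CTR KA arrays, at 10.91 ± 1.37 (SD, n = 5) against 9.05 ± 0.13 (SD, n = 6) after saline, and its interaction term of −1.64 was not called (limma adjusted p = 0.072). Dpysl4 of the same family fell in CTR mice (−1.20) and was higher in KO mice after KA (0.65, adjusted p = 6.1e-04). Dpysl3 also passed the interaction threshold (−1.27, limma adjusted p = 0.0074). Flrt2 rose by 0.63 in CTR mice and had −0.07 in KO mice, not called. Between the genotypes after KA it differed by −0.71 (limma adjusted p = 4.3e-04), and its interaction term was not called (−0.70, adjusted p = 0.016).

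Other listed genes moved too, several of them in both genotypes. Lingo1, a co-receptor for myelin inhibitors, rose by 2.46 in CTR and 2.07 in KO mice, and Cxcr4, the receptor of the chemokine Cxcl12, by 1.65 and 1.94. Cxcl12 itself fell (−1.60 and −0.78) and was 0.78 higher in KO mice after KA (limma adjusted p = 0.0070). Ntng1, a lipid-anchored netrin relative, fell (−1.28 and −1.20), as did Vav3, an exchange factor that acts below Eph receptors (−1.54 and −1.35). Rgma, a ligand of neogenin, fell in CTR mice (−1.24) and had −0.39 in KO mice, not called. After KA Rgma was 0.87 higher in KO than in CTR mice (adjusted p = 0.011). Neo1, the neogenin gene, rose in CTR mice (0.72) and had 0.26 in KO mice, not called. Trio, an exchange factor used below netrin receptors, rose by 0.83 and 1.00. Dcc, the attractive netrin receptor, had −0.04 and −0.00 from a probe near the low end of the range. After saline 0 of the 63 were called with limma, and 0 had an unadjusted p under 0.05.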

How the data were processed

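Illumina MouseWG-6 signals of dentate gyrus RNA were background-subtracted, quantile normalized (BeadArray package) and turned to log2 by the authors, and the deposited log2 values of 46237 probes were used as given. No detection p was used and no probe was filtered out. A second deposited table, of intensity values, was used only for a check. All its columns had the same lowest and the same highest value, and 16 of its 22 columns held the values of another sample than the header names, 14 of them of another group (best r of at least 0.9997, next best at most 0.9952). Srf separated CTR from KO arrays in the log2 table (lowest CTR 11.73, highest KO 11.59) and not by the headers of the intensity table (lowest CTR 11.11, highest KO 12.49).

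Group means of all 22 arrays were fitted to every probe with limma 3.58.1 in R 4.3.3, with 18 residual degrees of freedom and Benjamini-Hochberg adjustment over all probes. Calls needed an adjusted p under 0.05 and more than 1.5-fold, or an adjusted p under 0.01 for the interaction. Members named in full were those called in any of the 5 comparisons, with their partner ligands or receptors, and all others were given by range and count. The members and lists were chosen with earlier results of these data known. Gene symbols came from the array annotation at GEO, which can be old. Promoters were matched by symbol for 60 of 70 members. The labels name a group and a replicate number, and the paper describes each array as a separate animal. The p-values rest on an estimate of the spread between animals pooled over the 4 groups. That spread was not alike in all groups. Sema5a had an SD of 1.03 on the CTR KA arrays, against 0.13, 0.22 and 0.28 on CTR saline, KO saline and KO KA arrays. Precision is limited by the number of arrays. Alternatives were other filters, array weights, blocks, tests and probe choices, and leaving out each array in turn.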

Additional observations from a re-analysis of the deposited data

Results flagged for a closer look

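Single arrays lay far from the rest of their group in 8 of 76 groups examined (19 called members in 4 groups each), judged by the gap to the nearest array over the range of the group. Chance gives about 1 in 20. In Sema7a, CTR saline array 6 had a log2 signal of 12.08, where the others held 12.60 to 12.90. In Unc5c the same array had 11.24, against 11.52 to 11.58. In Plxna2, CTR KA array 4 had 11.69, against 12.60 to 12.88. KO saline array 5 was low in Nrp1 (12.86, against 13.16 to 13.24), in Ephb6 (8.79, against 9.24 to 9.46) and in Ntn5 (11.57, against 12.19 to 12.48). KO KA array 3 was low in Epha3 (8.48, against 9.04 to 9.22) and in Unc5c (10.45, against 10.92 to 11.07).

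The response of Ntn3 to KA differed between the genotypes by 0.63 on the log2 scale in the interaction test of limma (adjusted p = 0.0058), with −0.51 in CTR and 0.12 in KO mice. Among the members 1.43% were called higher for the interaction, against 1.21% of all genes. The call was kept in 11 of 22 fits with 1 array left out. It was lost in an unmoderated fit, with the most variable probe and without CTR KA arrays 2 and 4. After saline the difference between KO and CTR mice was −0.21, not called.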

How the results depend on the processing

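No called member reversed its sign under any setting. With the most variable probe of each gene, 10 members were higher after KA in CTR mice, 4 were lower in KO than in CTR mice after KA and 0 passed the interaction. With the mean over all probes of a gene, which includes probes near the low end, 5 members were lower after KA in CTR mice, and in KO mice 3 were higher and 1 lower. In CTR mice Epha3, Ephb1, Ephb2, Robo4 and Unc5c lost their calls with this mean. KO against CTR after KA gave 1 higher member when the compared groups were fitted alone and 9 with normexp, a background correction chosen after seeing the data. Normexp was run on the deposited values, which were already background-subtracted and quantile normalized, and was followed by a further quantile normalization. Without the CTR KA arrays 2 and 4, also chosen after seeing the data, KO against CTR after KA gave 1 higher and 4 lower. The interaction then gave 0 higher and 1 lower. The interaction gave 4 higher with array weights and 0 in an unmoderated fit. The cause of these shifts was not tested.

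Leaving out 1 array at a time gave 5 to 9 higher and 9 to 10 lower members for KA in CTR mice, 5 to 8 and 2 to 4 in KO mice (2 lower without KO KA array 3), 0 to 0 and 0 to 0 between genotypes after saline, 1 to 9 and 1 to 3 after KA, and 0 to 2 and 0 to 1 for the interaction. Of 704 results with 1 array left out, 642 kept their call and 62 lost it. The interaction had 2 higher without CTR KA array 5 or KO KA array 3, 1 lower without CTR KA array 4 or KO KA array 3, and 0 higher without any of the 11 arrays that ended the call of Ntn3. Between the genotypes after KA, the 9 higher came without CTR KA array 1 and the 1 higher without CTR KA array 4, each left out alone.

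With the replicate number as a block, 7 and 10 members were called for KA in CTR mice, 6 and 5 in KO mice, 5 and 1 between genotypes after KA, and 1 and 1 for the interaction, where Unc5a was called lower. Sema3e in KO mice lost its call. Same-numbered arrays tended to deviate together more than others, though not in every pair (31 pairs, mean r 0.09, −0.27 to 0.37, 18 above 0.1). For arrays of different numbers the mean r was −0.01 (150 pairs, 49 above 0.1). The arrays were not treated as paired in the main fit. Normexp on the intensity table was not run because its headers name other samples, nor was a beadchip block, since no chip is named in the sources used here. Probes near the median signal of 7.88 limit what could be seen for 17 members.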
